A study of Homo sapiens with 60 samples.

Results

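SW1783, a cell line from a human astrocytoma, was treated for 24 h with a hot-water extract of Glycyrrhizae Radix (licorice) at 20 µg/mL, the lowest of 3 doses, and compared with cells given the solvent DMSO as vehicle. The 6 libraries compared are the 3 labelled as the low dose of licorice and the 3 labelled as vehicle, of 60 libraries in the series. The labels give 0.1% DMSO for the vehicle, the text of the series gives 2%, and no source used here gives the solvent content of the licorice cultures. The other groups used are licorice at 100 and 500 µg/mL, and the hot-water extracts of Panax Ginseng at the same 3 doses and of Poria Cocos, Atractylodis Rhizoma, Angelicae Gigantis Radix and Paeoniae Radix at 20 µg/mL. No group carries a genetic change, and all come from the same cell line. The titles of all these groups begin with BatchA. By their sample codes licorice and ginseng belong to the same set and the vehicle to another, and no source used here says what the sets stand for. In any comparison with vehicle, the treatment and the sample set cannot be told apart. The labels do not say that replicates came from separate cultures, so p-values measure only the spread between libraries. That spread was estimated over all 60 libraries in 22 groups, not from the 6 compared alone.

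The 3 vehicle libraries held 27.37 to 29.87 M counts and the 3 low-dose libraries 24.83 to 29.09 M counts. Levels are given as CPM, that is, counts scaled to a common library total, after TMM scaling. The cell line was checked against markers of astrocytes: VIM, CD44, GJA1 and SOX9 were abundant, with lowest levels over the 6 libraries of 5049.7, 2512, 245 and 71.2 CPM, whereas GFAP, S100B, AQP4 and ALDH1L1, which define mature astrocytes, lay at or below 0.177 CPM in all 6. The rest of that list was lower than SOX9: SLC1A3 at 18.2 to 23.1 CPM, NES at 5.81 to 6.98, ALDOC at 5.97 to 7.34 and SLC1A2 at 0.0708 to 0.444 CPM. Markers of blood, microglia and myelin were mixed: HBB, AIF1 and MOG were at 0 in all 6 libraries. Of the same lists, PTPRC lay at 8.41 to 9.62 CPM, CD68 at 159 to 174 CPM and MBP at 5.10 to 6.36 CPM. Markers of epithelial and other neural cells were mixed too. KRT18 lay at 185 to 228 CPM, CSPG4 at 174 to 189, TUBB3 at 94.0 to 119.8 and SYT1 at 34.0 to 38.7 CPM. EPCAM, CDH1, RBFOX3 and STMN2 lay at or below 0.250 CPM in all 6. These levels do not settle the cell type. The share of counts from the mitochondrial genome was 5.42 to 5.90% in the vehicle libraries and 4.75 to 5.38% in the low-dose libraries, and its part in the results was not tested.

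NF-kB is a family of transcription factors that inhibitor proteins hold in the cytoplasm of resting cells. When an inflammatory signal removes the inhibitor, the factors enter the nucleus and switch on chemokines, cytokines, adhesion molecules, survival proteins and, as a brake, their own inhibitors. In astrocytes and astrocytoma cells this program makes the secreted factors that call in and activate blood leukocytes. Licorice root is known for glycyrrhizin, a sweet saponin, and for flavonoids and chalcones.

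At 20 µg/mL licorice many genes of NF-kB-driven inflammation rose. Among them were CXCL8, a chemokine of the CXC family that draws neutrophils, and its neighbours CXCL1, CXCL2, CXCL3 and CXCL5. IL6, SOD2, PTX3, BIRC3 and ICAM1 rose 1.74- to 2.06-fold. Of 19 tested members of a list of 20 NF-kB target genes, 14 rose and 0 fell, with a median log2 fold change of 0.64, where the median of all genes tested was 0.01. CCL20 was not tested because its counts were too low. DESeq2 called 11 members higher and 1 lower, with 5 given no adjusted p, and the member that it called lower was PTGS2. Over all 17919 genes tested, 274 were called higher (1.53%) and 315 lower (1.76%), in all 3.29%. The test was edgeR's quasi-likelihood F test, and a gene was called where its adjusted p was below 0.05. Most of these changes were small: the median change was 1.23-fold upward and 1.16-fold downward, and 18 rises and 3 falls reached 2-fold. DESeq2 called 287 genes higher and 567 lower, so the share of rises moved from 46.5% to 33.6%. In bulk RNA, fewer cells of a kind and less RNA per cell cannot be told apart.

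How firmly a single call stood varied with the gene. Each of the 6 libraries was left out in turn; 64 of the 274 rises (23.4%) and 58 of the 315 falls (18.4%) were called every time, against 13 of the 14 called members of the NF-kB list (92.9%). The total fell lowest, to 162 genes, without replicate 3 of the low dose, and was 191 without replicate 1 and 263 without replicate 3 of the vehicle, and 315 without replicate 2 of the low dose. The number of NF-kB members called higher was 13 or 14 in these fits, and PTGS2 was called lower in the fit without replicate 1 of the low dose. In 271 of the 274 rises and all 315 falls the low-dose libraries did not overlap the vehicle libraries, beside 14.2% of all genes tested that lay wholly above the vehicle and 14.4% wholly below. Just inside the threshold were GPR137 at −0.22, with an adjusted p of 0.0496, and NEIL2 at 0.24, with 0.0497; just outside were METTL7B at −0.26 and PCOLCE at −0.17, both with 0.0503.

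Among the chemokines, CXCL8 stood at 10.6, 12.6 and 9.91 CPM in the 3 vehicle libraries and at 30.3, 30.7 and 31.3 CPM at the low dose. All 3 treated libraries were far above the vehicle, and they differed among themselves by less than the vehicle libraries did. The log2 fold change was 1.47 ± 0.09 (SE, n = 3 against 3 libraries; edgeR adjusted p = 6.14e-18). CCL2, which attracts monocytes, was more abundant and moved less: 36.4, 35.6 and 36.1 CPM in vehicle and 47.4, 44.9 and 44.7 CPM at the low dose, a log2 change of 0.34 ± 0.08 (adjusted p = 0.0102). Its call was lost without replicate 1 of the low dose, with an adjusted p of 0.0510.

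CXCL1, CXCL2, CXCL3 and CXCL5, which bind the same neutrophil receptor as CXCL8, were near the limit of detection in vehicle. CXCL1 had 9, 4 and 6 counts in the vehicle libraries and 42, 54 and 33 at the low dose. The ratio of summed counts per total count was 7.14, with an exact interval of 4.39 to 12.3 at 95% confidence, which covers counting error only. CXCL3 had 4, 12 and 8 counts in vehicle and 35, 51 and 42 at the low dose, a ratio of 5.61 (3.61 to 9.08). CXCL2 rose from 50 counts in all to 139, a ratio of 2.92 (2.10 to 4.13), and CXCL5 from 66 to 190, a ratio of 3.03 (2.28 to 4.07). None of the 4 genes overlapped between the groups, and their adjusted p ran from 9.67e-08 for CXCL3 to 3.87e-04 for CXCL2. CXCL1, CXCL2 and CXCL3 are close copies of each other, so the estimated split of reads between them is uncertain. CXCL6 had 5 counts in vehicle and 14 at the low dose and did not pass (log2 1.45 ± 0.86, adjusted p = 0.411).

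**Figure D1:**
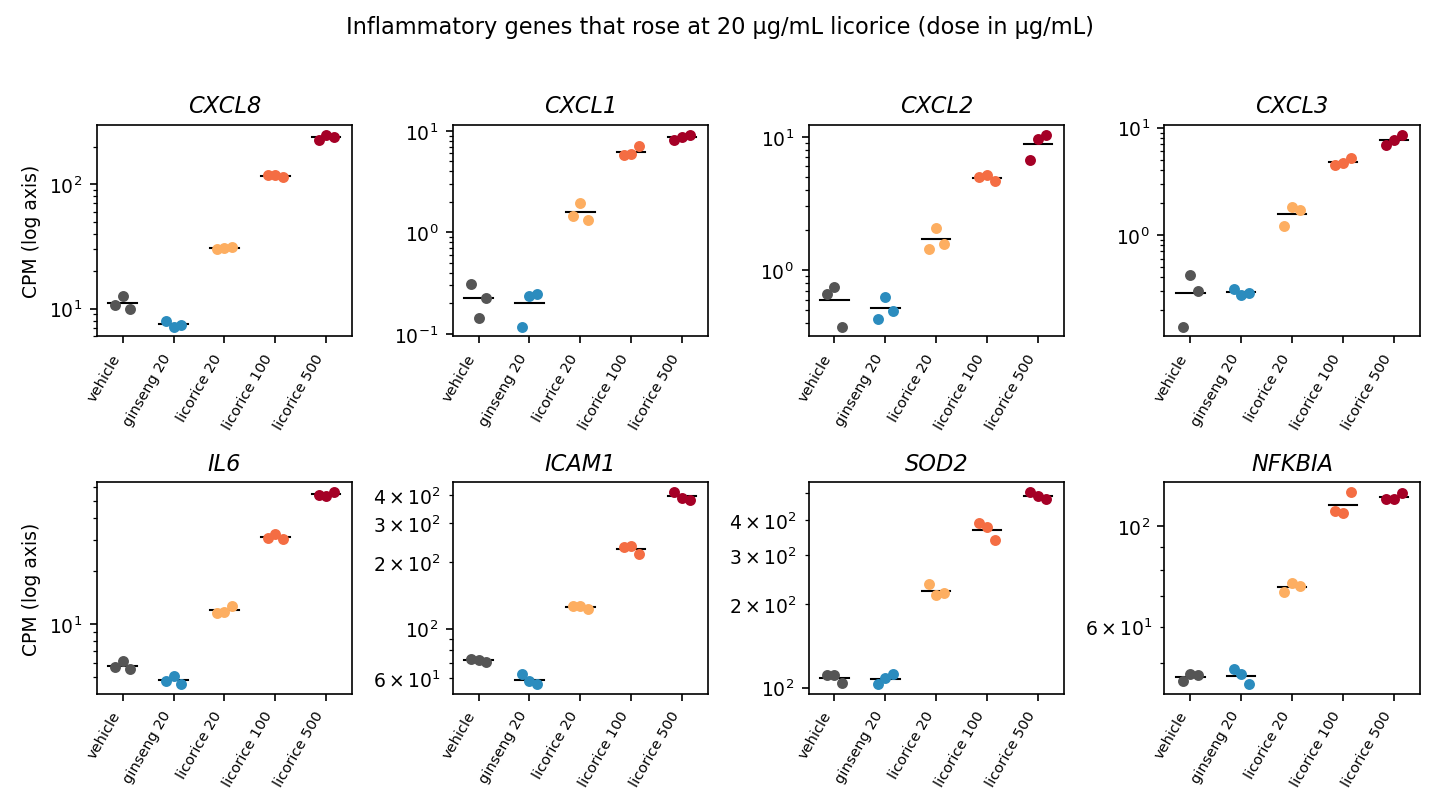
CPM of 8 inflammatory genes in each library (points; black lines are means of 3 libraries) on a log axis, for vehicle, ginseng at 20 µg/mL and licorice at 20, 100 and 500 µg/mL. In each panel the 3 libraries at 20 µg/mL licorice lie above all vehicle and ginseng libraries and below those at 100 and 500 µg/mL; CXCL8 runs from 9.91 to 12.6 CPM in vehicle to 227 to 250.1 CPM at 500 µg/mL.

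These genes also share sequence in front of their start sites. The 200 bases before the start of 8 of the risers are shown because each holds a stretch that reads as a binding motif of NF-kB, given here in capitals. They come from RefSeq on GRCh38.p14, written 5′ to 3′ on the strand of the gene, and lie at chr4:73869193-73869392 (CXCL1, plus strand), chr4:74099196-74099395 (CXCL2, minus), chr4:74038690-74038889 (CXCL3, minus), chr4:73998678-73998877 (CXCL5, minus), chr4:73740369-73740568 (CXCL8, plus), chr7:22727000-22727199 (IL6, plus), chr14:35404750-35404949 (NFKBIA, minus) and chr19:10270920-10271119 (ICAM1, plus).
CXCL1: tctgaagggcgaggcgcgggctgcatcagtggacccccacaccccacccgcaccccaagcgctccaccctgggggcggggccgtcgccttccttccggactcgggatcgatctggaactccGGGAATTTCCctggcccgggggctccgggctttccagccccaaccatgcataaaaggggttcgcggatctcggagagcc
CXCL2: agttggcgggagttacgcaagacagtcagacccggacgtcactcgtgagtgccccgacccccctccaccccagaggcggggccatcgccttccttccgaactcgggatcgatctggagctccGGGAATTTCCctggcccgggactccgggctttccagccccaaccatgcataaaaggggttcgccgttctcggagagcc
CXCL3: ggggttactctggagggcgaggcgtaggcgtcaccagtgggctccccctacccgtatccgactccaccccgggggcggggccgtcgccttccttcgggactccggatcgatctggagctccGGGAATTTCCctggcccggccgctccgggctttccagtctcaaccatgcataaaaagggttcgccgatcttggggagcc
CXCL5: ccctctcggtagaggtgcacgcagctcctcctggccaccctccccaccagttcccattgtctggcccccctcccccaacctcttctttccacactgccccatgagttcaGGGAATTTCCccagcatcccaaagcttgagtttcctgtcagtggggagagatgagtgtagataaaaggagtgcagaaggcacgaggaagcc
CXCL8: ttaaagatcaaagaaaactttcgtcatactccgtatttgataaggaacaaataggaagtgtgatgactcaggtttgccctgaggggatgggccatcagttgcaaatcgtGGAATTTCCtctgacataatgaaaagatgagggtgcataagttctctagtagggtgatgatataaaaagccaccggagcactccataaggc
IL6: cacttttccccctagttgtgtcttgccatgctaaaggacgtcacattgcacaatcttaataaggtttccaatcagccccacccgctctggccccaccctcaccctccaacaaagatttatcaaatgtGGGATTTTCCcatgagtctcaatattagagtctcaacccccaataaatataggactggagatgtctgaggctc
NFKBIA: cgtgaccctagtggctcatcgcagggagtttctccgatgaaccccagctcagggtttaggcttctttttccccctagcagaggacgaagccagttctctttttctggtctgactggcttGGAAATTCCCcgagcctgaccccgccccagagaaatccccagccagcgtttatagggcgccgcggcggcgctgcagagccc
ICAM1: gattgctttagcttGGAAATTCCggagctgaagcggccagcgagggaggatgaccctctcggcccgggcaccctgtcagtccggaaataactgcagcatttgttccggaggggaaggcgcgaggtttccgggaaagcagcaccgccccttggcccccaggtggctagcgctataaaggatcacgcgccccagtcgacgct

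The stretch began 79, 78 and 79 bases before the start of CXCL1, CXCL2 and CXCL3, 91 bases before that of CXCL5 and CXCL8, 73 before IL6, 81 before NFKBIA and 186 before ICAM1. The last 100 bases before the start were compared position by position, without alignment. CXCL1 matched CXCL3 at 90 positions, CXCL2 at 73, CXCL5 at 27 and CXCL8 at 33. A shift by even 1 base lowers such a count, and the stretch starts elsewhere in CXCL2, CXCL5 and CXCL8 than in CXCL1. The counts thus show long shared sequence for CXCL1 and CXCL3, but cannot show its absence in CXCL5 or CXCL8. The motifs were GGG, any 2 bases and TTTCC, and GGAA, any base and TTCC. Both were searched on both strands from 250 bases before to 50 after each start; they overlap where the letters GGGAATTTCC occur. Of the 14 risers of the NF-kB list 12 had a window, and at least 1 motif stood in a window of 10 of these genes (83.3%). The same held for 29 of 210 genes that rose (13.8%), 13 of 256 that fell (5.08%) and 460 of 12156 tested (3.78%), counting genes with a window. Counted by window, 2.72% of all 35116 held one. A match is a description of the letters and says nothing of binding in these cells, and many genes of the list are known as NF-kB targets.

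Cytokines rose beside the chemokines. IL6, the main inducer of the acute-phase response, stood at 5.67, 6.20 and 5.52 CPM in vehicle and at 11.5, 11.7 and 12.7 CPM at the low dose. The groups were well apart, with a log2 change of 1.04 ± 0.10 (adjusted p = 1.93e-10); an antisense gene, IL6-AS1, overlaps it. IL1B, a fever-inducing cytokine, rose from 4.95, 4.85 and 4.05 to 7.35, 6.61 and 7.71 CPM (0.64 ± 0.11, adjusted p = 3.41e-04). IL32, which induces other cytokines, rose from between 7.16 and 8.89 to between 13.1 and 14.5 CPM (0.78 ± 0.10). The growth factors of granulocytes were rare: CSF3 had 21 counts in vehicle and 65 at the low dose, a ratio of 3.26 (1.96 to 5.61), and CSF2 had 11 and 40, a ratio of 3.83 (1.93 to 8.27). CSF3 was called whichever library was left out, whereas CSF2 lost its call without any of 5 libraries, at adjusted p of 0.121 without replicate 2 and 0.0850 without replicate 3 of the low dose and of 0.0858, 0.0580 and 0.0891 without replicates 1, 2 and 3 of the vehicle. LIF, a cytokine of the IL6 family on the same list, stayed at 52.6 to 56.3 CPM beside 52.8 to 58.0 CPM in vehicle (−0.02 ± 0.08, adjusted p = 0.930).

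Secreted proteins of innate defence rose as well. PTX3, a pattern-recognition protein that binds microbes and complement, rose from a mean of 31.7 CPM over the vehicle libraries, none above 32.9 CPM, to 61.6, 58.3 and 59.5 CPM (0.92 ± 0.07, adjusted p = 2.73e-15). Its span lies within VEPH1, a gene on the other strand, and no source used here says whether reads were counted by strand. Complement C3, the hub of the complement cascade, rose from 46.6, 44.9 and 47.4 to 70.9, 80.2 and 77.2 CPM (0.72 ± 0.07), and CFB, a protease that amplifies that cascade, from between 6.68 and 7.01 to between 9.53 and 10.1 CPM (0.52 ± 0.07). SAA1, an acute-phase protein, had 1 count over the vehicle libraries and 20 over the treated ones, a ratio of 21.0 with an interval of 3.37 to 872. Its call was lost without replicate 3 of the low dose (adjusted p = 0.0635) and without replicates 1 and 3 of the vehicle (0.0944 and 0.0798). These genes and the others named here that are neither among the largest changes nor on a list were chosen after their values were seen.

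On the cell surface, ICAM1, to which leukocytes attach, stood at 72.8, 72.4 and 70.9 CPM in vehicle and at 127, 127 and 122 CPM at the low dose. The 3 libraries of each group lay close together and the gap was wide, with a small error (0.80 ± 0.04, adjusted p = 1.61e-20). VCAM1, the adhesion molecule usually named beside it, stayed at 1.36 to 1.62 CPM beside 1.24 to 1.43 CPM in vehicle (0.22 ± 0.24, adjusted p = 0.715). TNFRSF9, a costimulatory receptor of the TNF receptor family, went from 108 to 258 counts, a ratio of 2.51 (2.00 to 3.18), and CD83, a maturation marker of antigen-presenting cells, from 129 to 247, a ratio of 2.01 (1.62 to 2.51). The tight-junction protein CLDN1 rose from between 3.83 and 4.25 to between 6.47 and 7.15 CPM (0.77 ± 0.11, adjusted p = 4.99e-06).

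Inhibitors and subunits of the pathway itself rose too. NFKBIA, the inhibitor that NF-kB itself induces, rose from 45.5, 47.2 and 47.0 to 71.6, 74.8 and 73.7 CPM (0.66 ± 0.06, adjusted p = 3.71e-11). TNFAIP3, an enzyme that shuts the pathway off at the ubiquitin level, rose from between 24.7 and 26.8 to between 38.3 and 41.3 CPM (0.63 ± 0.07), and ZC3H12A, a nuclease that degrades inflammatory mRNAs, from between 9.76 and 11.0 to between 14.5 and 16.6 CPM (0.62 ± 0.07). None of the 3 overlapped between the groups. NFKBIZ, a nuclear cofactor, rose from 3.53, 4.53 and 4.88 to 6.87, 8.04 and 7.30 CPM (0.78 ± 0.11). Among the subunits, NFKB2 rose by 0.43 ± 0.05 and RELB by 0.55 ± 0.08 on the log2 scale, both of the noncanonical branch, with adjusted p of 1.18e-08 and 3.98e-06. NFKB1, a canonical subunit, had means of 23.9 ± 1.3 CPM in vehicle and 27.1 ± 1.7 CPM at the low dose (SD, n = 3 libraries each) and did not pass edgeR's test (0.18 ± 0.06, adjusted p = 0.0942). MAP3K14, the kinase that starts the noncanonical branch, fell from 69.1, 70.3 and 72.4 to 56.2, 56.4 and 56.0 CPM (−0.33 ± 0.05, adjusted p = 2.66e-05).

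Survival and signalling proteins completed the group. BIRC3, which blocks cell death downstream of the TNF receptor, rose from 14.8, 15.9 and 15.8 to 27.8, 32.6 and 27.4 CPM (0.92 ± 0.08, adjusted p = 2.41e-12), and its partner TRAF1 from between 10.7 and 12.1 to between 16.3 and 16.8 CPM (0.54 ± 0.07). TNFAIP2 rose by 0.49 ± 0.07. SOD2, the superoxide dismutase of mitochondria and by level the most abundant of these genes, rose from 111, 111 and 104 to 236, 215 and 219 CPM (1.04 ± 0.05, adjusted p = 3.28e-21); its span overlaps WTAP on the other strand. PTGS2, the inducible cyclooxygenase, went the other way, from 88.8, 88.2 and 86.6 to 81.8, 72.9 and 70.0 CPM. The groups did not overlap, but the difference did not pass (−0.23 ± 0.07, adjusted p = 0.0773). It was called lower under other settings: with the replicate block (adjusted p = 0.00954), with no filter on low counts (0.00246), when the fit held only both groups (0.00185), by DESeq2 (0.0331) and without replicate 1 of the low dose (0.0371). Over all alternatives its adjusted p ran up to 0.335, without replicate 3 of the low dose.

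Genes of other pathways rose as well. SQSTM1, an autophagy receptor and target of the stress regulator NRF2, rose from 549, 566 and 561 to 711, 671 and 669 CPM (0.29 ± 0.04, adjusted p = 7.45e-06). It was the only riser among 20 NRF2 targets, of which 2 fell, among them TKT, an enzyme of the pentose phosphate pathway, by 0.16 on the log2 scale. TKT lost its call without each library except replicate 1 of the low dose, at adjusted p of 0.0502 to 0.121. IGFN1, a muscle protein, rose from 4.53, 4.50 and 5.97 to 7.35, 8.22 and 10.1 CPM (0.77 ± 0.17, adjusted p = 0.00524), a call lost without replicate 3 of the low dose (0.0770) and replicate 1 of the vehicle (0.0537). FGF2, a growth factor for astrocytes, rose from between 252 and 261 to between 299.9 and 304 CPM (0.24 ± 0.05), and AKR1B1, an aldose reductase, from between 203 and 212 to between 252 and 258 CPM (0.30 ± 0.06). The galactose pathway had 2 risers of 6, among them GALT, the transferase of that pathway (0.41 ± 0.09). Its adjusted p was 0.0538 without replicate 2 of the low dose and 0.0697 and 0.0548 without replicates 1 and 2 of the vehicle.

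The falls touched several kinds of gene. Leaving out genes with only a clone or LINC name, the 10 largest among genes of at least 5 CPM were EGR3, SNAI1, IFITM10, OLFML2B, LONRF2, SFRP2, ITGB4, DLX2, DOK7 and CCN2, with log2 changes between −0.58 and −0.44. EGR3, a transcription factor induced by growth signals, stood at 8.99, 10.5 and 7.69 CPM in vehicle and at 5.94, 5.90 and 6.37 CPM at the low dose (−0.58 ± 0.11, adjusted p = 0.00111). The vehicle libraries were scattered and the treated ones tight, without overlap. EGR3 was also below vehicle with the other low-dose extracts, at −0.31 to −0.68, and was called with poria, atractylodes and peony. Licorice differed from the mean of the other extracts by −0.09 ± 0.09 for EGR3 (edgeR adjusted p = 0.757). OLFML2B, a protein of the extracellular matrix, fell from 12.9, 12.3 and 13.5 to 8.08, 8.94 and 9.96 CPM (−0.53 ± 0.08, adjusted p = 1.39e-05), and SFRP2, a secreted modulator of Wnt signalling, from 38.4, 33.8 and 35.8 to 26.0, 26.9 and 25.0 CPM (−0.47 ± 0.08, adjusted p = 1.17e-04). ITGB4, an integrin that anchors cells to the basement membrane, fell from 22.3, 20.8 and 22.4 to 15.6, 15.5 and 16.3 CPM (−0.47 ± 0.10, adjusted p = 0.00314). Calls for 3 of the 10 rested on single libraries. SNAI1, a repressor of epithelial genes, had an adjusted p of 0.0604 without replicate 3 of the low dose, where IFITM10 had 0.113; without replicate 1 of the vehicle IFITM10 had 0.135. CCN2, a matrix protein induced by tension, had 0.111 and 0.0510 without replicates 1 and 3 of the low dose and 0.0538 and 0.0630 without replicates 1 and 2 of the vehicle.

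Several genes of the cytoskeleton fell. ACTA2, the actin of smooth muscle and contractile fibroblasts, stood at 145, 145 and 139 CPM in vehicle and at 111, 106 and 103 CPM at the low dose (−0.42 ± 0.06, adjusted p = 2.55e-06). KRT18, a keratin, fell from 225, 228 and 219.9 to 187, 187 and 185 CPM (−0.27 ± 0.05), TUBB3, a tubulin typical of neurons, from 119, 119 and 119.8 to 104, 95.5 and 94.0 CPM (−0.29 ± 0.05), and ACTN1, which crosslinks actin, from between 1106 and 1130.3 to between 936 and 979.7 CPM (−0.23 ± 0.05). In all 4 the low-dose libraries lay below every vehicle library, and the calls held whichever library was left out. VIM, the intermediate filament of glia, fell by 0.23 on the log2 scale; its adjusted p was 0.00979, but 0.0633 without replicate 3 of the low dose and 0.0667 without replicate 1 of the vehicle. Of 20 genes for actin, contraction and matrix, 3 fell (ACTA2, ACTG2 and CCN2) and 0 rose, with a median of −0.10; without replicate 1 of the vehicle 1 fell. ACTG2, an actin of smooth muscle, had an adjusted p of 0.118 without replicate 2 of the low dose and 0.0885 without replicate 1 of the vehicle. The list medians of the other low-dose extracts against the shared vehicle were −0.06 to −0.17, and peony had 6 members lower and 1 higher. Against the mean of the other extracts 2 of the 20 were higher with licorice and 1 lower, with a median of 0.02. ACTA2 was lower with licorice than that mean by 0.19 (edgeR adjusted p = 0.0123). CCN2 differed from it by 0.02 ± 0.09 (edgeR adjusted p = 0.967).

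**Figure D2:**
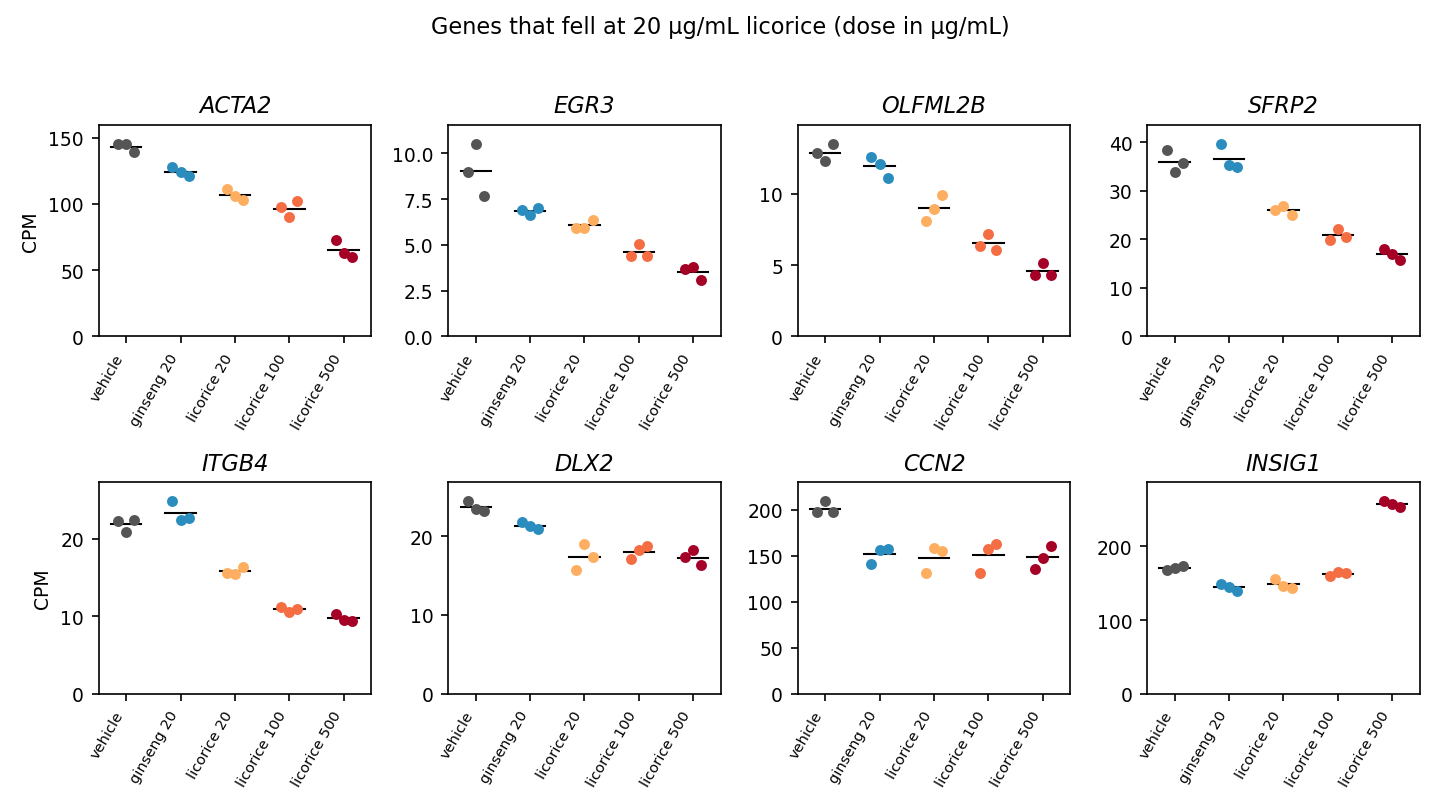
CPM of 8 genes that fell at 20 µg/mL licorice, in each library (points; black lines are means of 3 libraries), for vehicle, ginseng at 20 µg/mL and licorice at 20, 100 and 500 µg/mL. ACTA2, EGR3, OLFML2B, SFRP2 and ITGB4 go on falling with dose, DLX2 lies at 16.3 to 18.7 CPM at the higher doses with the libraries at 20 µg/mL on both sides of that range, and INSIG1 turns upward to 254 to 261 CPM at 500 µg/mL.

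Smaller counts came from other lists. Of 20 genes of mitosis, 4 fell and 0 rose: PLK1, the kinase that drives mitotic entry, from 179.6, 167 and 172 to 143, 144 and 142 CPM (−0.27 ± 0.06, adjusted p = 0.00346), then KIF20A, BUB1 and TPX2, all parts of the spindle machinery, by 0.21, 0.17 and 0.16 on the log2 scale. PLK1 alone of the 4 was called in all fits: without replicate 3 of the low dose and without replicate 1 of the vehicle 1 member was called in each. Against ginseng at the same dose 0 of the 20 were called, 1 had an unadjusted p under 0.05, downward, DESeq2 called 0, and the median was 0.02. Against the mean of the other extracts 0 were called, 3 had an unadjusted p under 0.05 upward and 1 downward, DESeq2 called 0, and the median was 0.03. The medians of the other 5 extracts against the shared vehicle were −0.08 to −0.14, beside −0.07 for licorice, and peony had 7 members lower. Heat shock had 3 falls of 12, BAG3, HSPB1 and HSP90AB1, of which the cochaperone BAG3 was called in all fits (−0.32 ± 0.06, adjusted p = 0.00122); 1 member was called without replicate 3 of the low dose and without each replicate of the vehicle in turn. Neither against ginseng nor against the mean of the other extracts was any of the 12 called. Unadjusted p was under 0.05 for 1 upward and 1 downward against ginseng, and for 0 upward and 5 downward against that mean. BAG3 was at −0.08 to −0.22 with the other extracts against vehicle. Licorice differed from their mean by −0.15 ± 0.05 for BAG3 (edgeR adjusted p = 0.120). Of 20 immediate early and ERK-response genes, EGR3, FOSB and SPRY4 fell and IER3 rose, while EGR1 and FOS, its best known members, were at 0.02 ± 0.17 and −0.31 ± 0.22. With the other extracts SPRY4 was also below vehicle, at −0.24 to −0.47, and it was called with all of them but ginseng. Licorice differed from their mean by −0.00 ± 0.06 for SPRY4 (edgeR adjusted p = 0.998). IER3, a stress-induced survival gene and a known NF-kB target, had 169 counts in vehicle and 258 at the low dose, a ratio of 1.61 (1.32 to 1.96); its call was lost without replicate 2 or 3 of either group, at adjusted p of 0.0794 to 0.104. FOSB lost its call without replicate 2 of the low dose (0.114) and replicate 1 of the vehicle (0.0661). Of 14 glucocorticoid-response genes, NFKBIA and DUSP1 rose and KLF9 and PER1 fell. DUSP1, a phosphatase that ends MAP kinase signals, kept its call only without replicate 1 of the low dose (adjusted p of 0.0720 to 0.174 in the other 5 fits), and PER1, a clock gene, lost it without replicates 1 and 3 of the low dose (0.117 and 0.0633) and replicate 1 of the vehicle (0.104). FKBP5 and TSC22D3, the standard readouts of the glucocorticoid receptor, were at 0.06 and −0.03, with adjusted p of 0.799 and 0.916.

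Of 25 genes of cholesterol synthesis and uptake, 3 fell and 0 rose. INSIG1, which retains the sterol sensor in the endoplasmic reticulum, fell from 168, 171 and 173 to 156, 146 and 144 CPM (−0.20 ± 0.05, adjusted p = 0.0173), and SQLE, a rate-limiting enzyme of the pathway, by 0.14 on the log2 scale (adjusted p = 0.0444). Both calls rested on single libraries: INSIG1 had an adjusted p of 0.127 and SQLE of 0.232 without replicate 3 of the low dose. INSIG1 also had 0.0753 without replicate 2 of the low dose and 0.0765 without replicate 3 of the vehicle, and SQLE had 0.0825 to 0.151 without replicate 2 of the low dose or any vehicle library. HMGCS1, an early enzyme of the pathway, did not pass (−0.13 ± 0.05, adjusted p = 0.166).

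The other lists had 1 called member or 2 at most. FADS1, a fatty acid desaturase, rose by 0.17 ± 0.05 and PFKFB4, which sets the rate of glycolysis, by 0.42 ± 0.08, from 26.6, 26.4 and 24.4 to 34.2, 33.0 and 36.3 CPM. With the other low-dose extracts PFKFB4 was also above vehicle, at 0.17 to 0.45, and it was called with atractylodes, angelica and peony. Licorice differed from their mean by 0.07 ± 0.06 for PFKFB4 (edgeR adjusted p = 0.701). NDRG1, a hypoxia-induced gene, fell by 0.25 on the log2 scale and RARA, a retinoic acid receptor, by 0.31. RARA had an adjusted p of 0.0601 without replicate 1 of the vehicle. NDRG1 had 0.0579 and 0.0517 without replicates 1 and 2 of the low dose and 0.0646 without replicate 1 of the vehicle, and FADS1 had 0.267 without replicate 3 of the low dose and 0.102, 0.119 and 0.0611 without replicates 1, 2 and 3 of the vehicle.

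Several programs had no called member against vehicle at this dose in edgeR's quasi-likelihood test. Of 17 tested interferon-response genes 0 were called, with a median of 0.14; 2 had an unadjusted p under 0.05, both upward, and DESeq2 called 1. ISG15, a ubiquitin-like interferon product, went from 26.8, 26.1 and 26.6 to 34.2, 34.2 and 33.6 CPM, without overlap but with an adjusted p of 0.0932 (0.36 ± 0.12). Of 20 targets of ATF4, the regulator of amino acid stress, 0 were called, 3 had an unadjusted p under 0.05 upward and 1 downward, and DESeq2 called 0. Of 20 genes of S phase 0 were called, 4 had an unadjusted p under 0.05, all upward, and DESeq2 called 0. Of 5 tested metallothioneins and zinc genes 0 were called, 1 had an unadjusted p under 0.05 upward, and DESeq2 called 0. All 5 had a positive log2 change against vehicle, and 4 lay wholly above it, beside 14.2% of all genes tested. Against ginseng at the same dose 2 of the 5 were called higher and 0 lower, with a median of 0.28, beside 0.709% of all genes called higher. Against the mean of the other extracts 3 were called higher and 0 lower, with a median of 0.39, beside 1.19% of all genes. Of the 13 mRNA genes of the mitochondrial genome 0 were called; 2 had an unadjusted p under 0.05 downward, DESeq2 called 0, and the median was −0.25 with 10 of 13 wholly below the vehicle. Other settings ended this: all 13 were called lower with no filter on low counts, and 4 were called lower when the fit held only both groups, which also called 5 interferon genes, 4 genes of S phase, 2 ATF4 targets and 1 metallothionein or zinc gene higher and 1 ATF4 target lower. With no filter 2 interferon genes, 1 ATF4 target and 1 metallothionein or zinc gene were called higher.

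**Figure D3:**
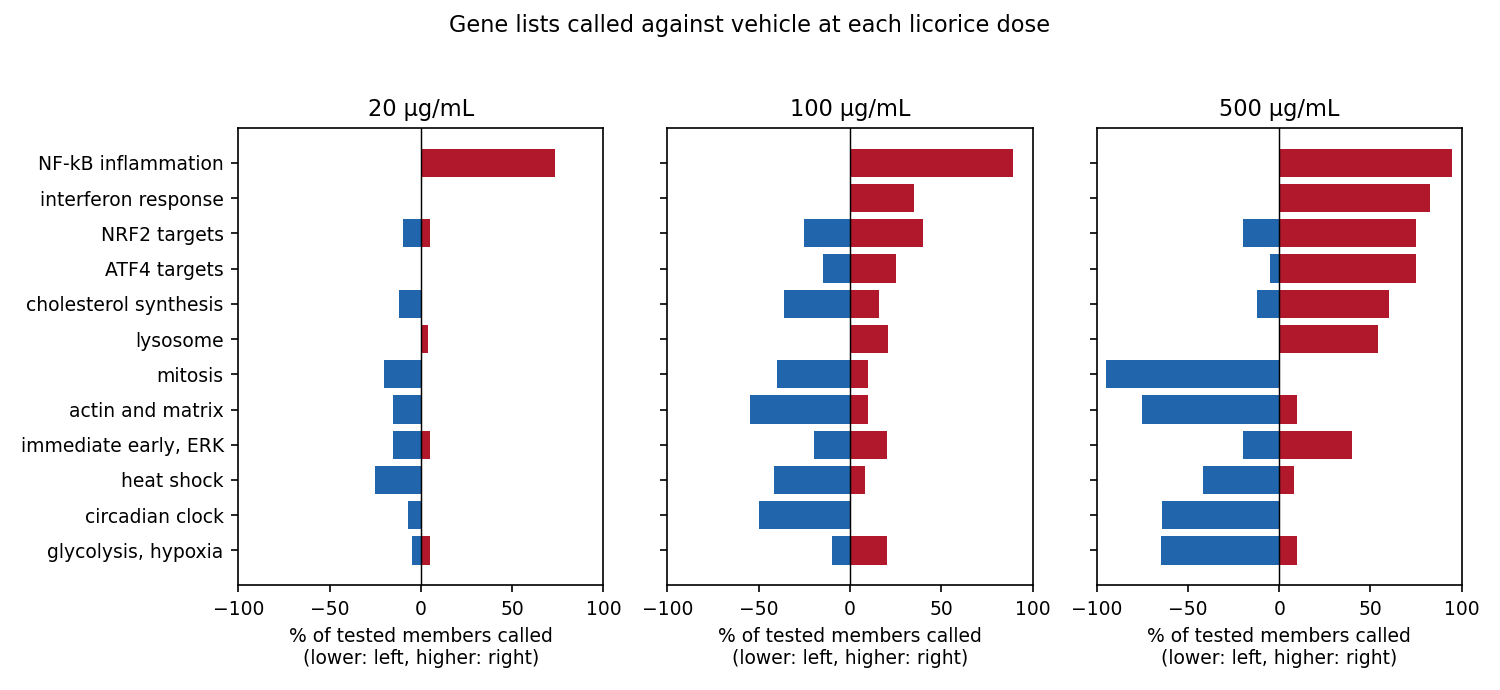
Share of the tested members of 12 gene lists called lower (left, blue) or higher (right, red) against vehicle at licorice doses of 20, 100 and 500 µg/mL. At 20 µg/mL the NF-kB list stands out with 14 of 19 members higher, while the other lists have at most 4 members called; at 500 µg/mL most lists have many.

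The course over dose was read from the same genes at 100 and 500 µg/mL. All 3 comparisons share the vehicle libraries, so their values are set side by side. At 100 µg/mL 25.2% of all genes were called and at 500 µg/mL 30.9%, beside 3.29% at 20 µg/mL. The median of the 274 rises was 0.30, 0.42 and 0.48 on the log2 scale at 20, 100 and 500 µg/mL, and that of the 315 falls −0.21, −0.26 and −0.31. The high dose was tested directly against the low dose, where 18.2% of all genes were called (9.02% higher, 9.14% lower); the low-dose libraries that chose the genes enter that test. Of the rises 133 were higher still at the high dose and 8 lower, and of the falls 121 were lower still and 14 higher. The NF-kB list had 14, 17 and 18 of 19 members higher at the 3 doses, with medians of 0.64, 1.28 and 1.65, and its summed level was 458 to 473 CPM in vehicle, 629 to 643 CPM at 20 µg/mL, 1042 to 1083 CPM at 100 µg/mL and 1515 to 1541 CPM at 500 µg/mL. Replicate 3 at 100 µg/mL stood apart from its group; without it 2255 genes were called at that dose in place of 4519, and 16 of the 19.

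Chemokines and cytokines climbed further with dose. CXCL8 reached 118, 118 and 115 CPM at 100 µg/mL and 227, 250.1 and 241 CPM at 500 µg/mL, so that its log2 change went from 1.47 to 3.40 and 4.43. CSF3 differed between the end doses by 4.40 on the log2 scale (adjusted p = 1.65e-22), to 16.7 to 17.1 CPM. IL1B went from 0.64 to 1.78 and 2.99, and IL6 from 1.04 to 2.43 and 3.24. NFKBIA had 0.66, 1.26 and 1.32, and BIRC3 0.92, 1.55 and 1.65, while the inhibitor TNFAIP3 had 0.63, 1.28 and 1.70. CCL2 was at 77.5 to 79.7 CPM at 100 µg/mL and at 67.3 to 71.9 CPM at 500 µg/mL. LIF and PTGS2, which were not called at the low dose, were higher at the high than at the low dose by 1.16 and 0.79 (adjusted p = 9.25e-16 and 1.12e-11).

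Several falls deepened with dose. KRT18 went from −0.27 to −0.43 and −1.03, TUBB3 from −0.29 to −0.47 and −1.09, and ACTA2 from −0.42 to −0.57 and −1.14; each differed between the high and the low dose, with adjusted p of 1.48e-17, 4.11e-18 and 1.40e-13. Mitosis went from 4 falls of 20 to 8 and 19. DLX2 and DOK7, in contrast, showed no further fall that could be detected: the difference of high against low dose was −0.01 (adjusted p = 0.972) and −0.07 (adjusted p = 0.672). For CCN2 it was 0.01 (adjusted p = 0.982).

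Some genes that fell at the low dose were higher at the high than at the low dose. INSIG1 had log2 changes of −0.20, −0.07 and 0.59, and the high dose exceeded the low by 0.79 (adjusted p = 2.81e-18). SQLE went from −0.14 to −0.12 and 0.13, and the cholesterol list from 3 falls of 25 to 15 rises and 3 falls. SPRY4, a feedback inhibitor of growth-factor signalling, was at −0.35, −0.33 and 0.04, with a difference of 0.39 between the end doses (adjusted p = 1.38e-05). GDNF, a neurotrophic factor that glia secrete, had 43, 39 and 24 counts in the vehicle libraries and 13, 15 and 11 at the low dose, a ratio of 0.387 (0.261 to 0.564). Its log2 change was −1.39 ± 0.29 at the low dose but −0.47 and −0.38 at the higher doses, and the high dose exceeded the low by 1.01 (adjusted p = 0.0128). The interferon list, with 0 called at the low dose, had 6 of 17 higher at 100 µg/mL and 14 at 500 µg/mL, and the ATF4 list went from 0 of 20 to 5 and 15 higher.

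**Figure D4:**
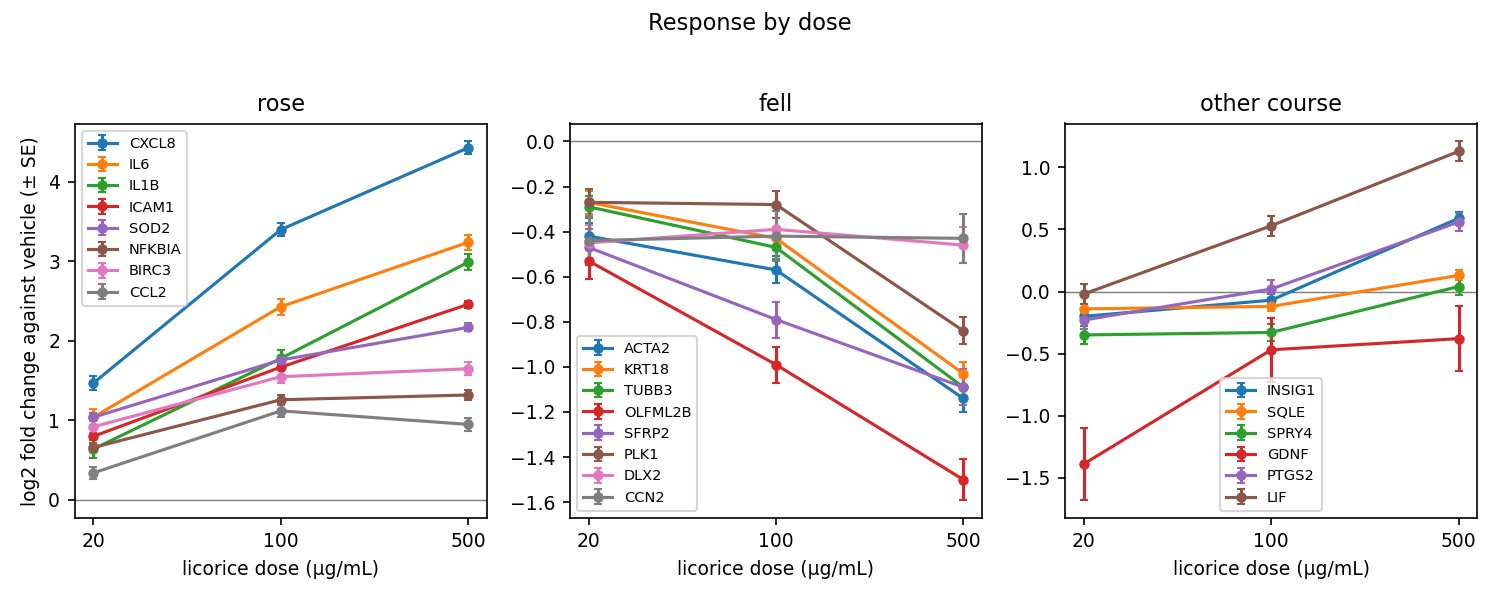
Log2 fold change against vehicle (points, with bars of 1 SE, 3 libraries a group) of genes by licorice dose in µg/mL on a log axis, for genes that rose (left), genes that fell (middle) and genes of other courses (right). CXCL8 climbs from 1.47 to 4.43 and NFKBIA goes from 0.66 to 1.32; INSIG1 crosses from −0.20 to 0.59 and LIF climbs from −0.02 to 1.13.

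Ginseng at 20 µg/mL shares the dose and the sample set with licorice, and so gives a comparison without the vehicle. Between both extracts 127 genes were higher in licorice (0.709%) and 99 lower (0.552%). Of the NF-kB list 16 of 19 members were higher in licorice and 0 lower, with a median difference of 0.74. CXCL8 was at 7.95, 7.14 and 7.36 CPM with ginseng, which put licorice 2.04 ± 0.10 higher on the log2 scale (adjusted p = 1.72e-22), a wider gap than that to the vehicle. ICAM1 was at 62.7, 57.8 and 56.2 CPM with ginseng, a difference of 1.09 ± 0.04, and LIF, not called against vehicle, was 0.39 ± 0.08 higher with licorice (adjusted p = 0.00586). Against the vehicle ginseng called 106 genes (0.592%; 0.218% higher and 0.374% lower), and 5 members of the NF-kB list were lower and 0 higher; these were CXCL8, CCL2, ICAM1, PTGS2 and LIF, with CXCL8 at −0.56. With libraries left out in turn the count was 2 without replicate 2 of ginseng or of the vehicle, and 3 without replicate 3 of ginseng or replicate 1 of the vehicle. The total for ginseng ran from 11 without replicate 3 of ginseng or replicate 1 of the vehicle, over 12 without replicate 2 of ginseng and 29 and 39 without replicates 2 and 3 of the vehicle, to 406 without replicate 1 of ginseng, which stood apart. The count between both extracts fell to 119 without that library, and to 136, 144 and 127 without replicates 1, 2 and 3 of licorice. In these 4 fits 14 to 16 members of the NF-kB list were higher.

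Some low-dose changes were close to those with ginseng. HERPUD1, a stress protein of the endoplasmic reticulum, fell from 124, 128 and 132 to 111, 87.8 and 84.8 CPM with licorice (−0.44 ± 0.12, adjusted p = 0.0271) and was at 99.8, 95.5 and 83.7 CPM with ginseng, a difference between both of 0.02 ± 0.12. Its call was lost whichever library except replicate 1 of the low dose was left out, at adjusted p from 0.0626 to 0.186. CCN2 differed between the extracts by −0.03 ± 0.11, GALT by 0.02 ± 0.09, INSIG1 by 0.05 ± 0.05, and the transcription factors KLF5 and RUNX1 by −0.02 ± 0.07 and 0.02 ± 0.07. NEAT1, a nuclear long noncoding RNA, stood at 286, 302 and 310.0 CPM in vehicle, at 415, 469 and 545 CPM with licorice and at 344, 445 and 521 CPM with ginseng, where the libraries of both extracts overlapped (0.13 ± 0.13, adjusted p = 0.864). For these genes the change against vehicle and the sample set cannot be told apart. In contrast SFRP2, ITGB4 and OLFML2B were lower with licorice than with ginseng by 0.49, 0.56 and 0.41 on the log2 scale, with adjusted p of 3.76e-05, 2.20e-04 and 0.00143, and ginseng left each within 0.12 of the vehicle. The largest falls of licorice against ginseng were in IFITM10, ANK3, an anchor of membrane proteins, and SLC7A8, an amino acid transporter, at −0.60, −0.63 and −0.58, among genes of at least 5 CPM. Without replicate 1 of ginseng IFITM10 and SLC7A8 were no longer called, at −0.43 and −0.41 (adjusted p = 0.222 and 0.148), nor was IFITM10 without replicate 3 of licorice (0.0854). ANK3 and SLC7A8 were at −0.31 and −0.36 against vehicle, with adjusted p of 0.151 and 0.0825.

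**Figure D5:**
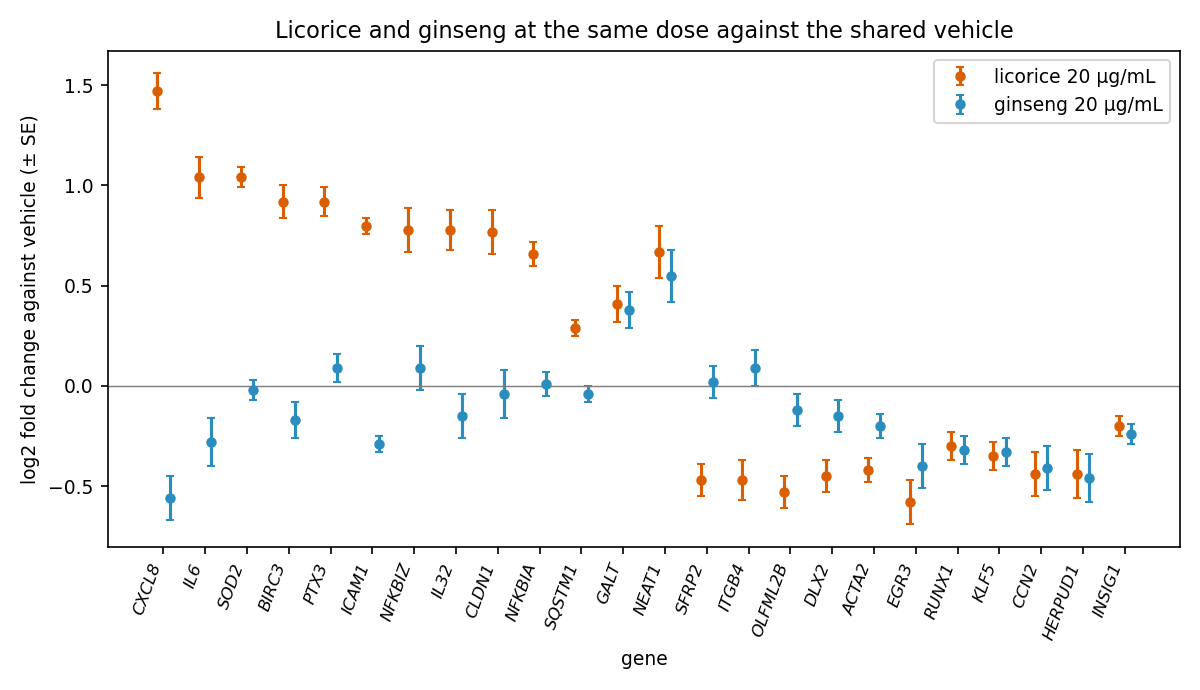
Log2 fold change against the shared vehicle (points, with bars of 1 SE, 3 libraries a group) for 24 genes with licorice (orange) and ginseng (blue), both at 20 µg/mL. For CXCL8 the extracts lie on opposite sides of 0, at 1.47 and −0.56, while GALT, NEAT1, CCN2, HERPUD1 and INSIG1 have overlapping error bars.

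The genes were also followed into libraries outside the low-dose comparison. These were part of the same fit of 60 libraries, so they helped set the spread and the filter behind the low-dose calls. Genes with a small spread are called more easily in any comparison of that fit, which the share of all genes does not allow for. Licorice at 100 µg/mL against ginseng at 100 µg/mL shares no library with the low-dose comparison, and 12.7% of all genes were called higher in it and 12.8% lower. Of the 274 low-dose rises 170 (62.0%) were higher there and 4 lower, and of the 315 falls 164 (52.1%) were lower and 5 higher. Without replicate 3 of licorice at 100 µg/mL the counts in the same direction were 155 and 145, beside backgrounds of 6.63% and 6.61%. At 500 µg/mL against ginseng at 500 µg/mL, where 17.2% of all genes were higher and 17.0% lower, 174 rises (63.5%) and 182 falls (57.8%) were called in the same direction, and 13 and 25 in the opposite one. The NF-kB list, chosen with earlier results of these data known, had 18 of 19 members higher in both, with medians of 1.52 and 1.79.

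The other extracts at 20 µg/mL have 3 libraries each, except angelica and peony with 2, and by their sample codes poria and atractylodes form another set than licorice and ginseng, and angelica and peony yet another. Against the mean of all 5, 214 genes were higher with licorice (1.19%) and 176 lower (0.982%), in all 2.18%. Of the NF-kB list 17 of 19 were higher and 0 lower, with a median of 0.73. The total of 390 fell to 237, 217 and 211 without replicates 1, 2 and 3 of licorice. Set beside the vehicle, which all share, the extracts differed: poria had 0 members of the list higher and 2 lower, angelica 0 and 5, and peony 0 and 6, whereas atractylodes had 7 higher and 2 lower, with a median of 0.33. The shares of all genes called higher and lower against vehicle were 0.117% and 0.301% for poria, 0.324% and 0.480% for atractylodes, 1.05% and 0.692% for angelica, and 2.73% and 2.50% for peony, in all 0.419%, 0.804%, 1.75% and 5.23%. With atractylodes CXCL8 was 0.97 above vehicle (adjusted p = 1.09e-09), CXCL5 1.48 (9.04e-05), ICAM1 0.38 (6.22e-08) and C3 0.46 (4.83e-05), beside 1.47, 1.55, 0.80 and 0.72 with licorice, while BIRC3 was at −0.13 with atractylodes (0.515) and 0.92 with licorice. Among genes of at least 5 CPM the largest falls against the mean of the others were in SLC7A8, VAV3, an exchange factor of small GTPases, and SFRP2, the first 2 at −0.54 and −0.52. VAV3 was at −0.17 against vehicle with licorice (adjusted p = 0.470), with overlapping groups, and was called higher than vehicle with angelica (0.48, 0.0186) and peony (0.41, 0.0335).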

How the data were processed

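RNA-seq libraries of SW1783 cells (total RNA, stranded kit, paired 100-base reads, per the labels' protocols) were analysed from 1 deposited table of expected counts per gene, which the authors made with RSEM 1.3.3. The aligner STAR 2.7.3a, the trimmer Trim Galore 0.6.5, FastQC 0.11.9 and the build hg38 are also named, per the submitters' processing notes. No source used here gives the annotation or strand setting. Of 279 columns, 60 matched samples and 219 were not used. Expected counts, 9.48% of them not whole (tolerance 1e-06), were rounded. Missing symbols and all positions came from GENCODE 29. Total counts per library were 19.45 to 30.87 M.

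In R 4.3.3, edgeR 4.0.16 (TMM, filterByExpr with a minimum count of 10 and total of 15, quasi-likelihood F test, robust) was fitted once to 60 libraries in 22 groups, and 17919 genes were tested. P-values were adjusted by Benjamini-Hochberg within each of 13 comparisons, with a threshold of 0.05, and the SE is the log2 fold change divided by the root of F. The fit was tested on simulated data. Alternatives were DESeq2 1.42.0, other size factors, no filter, only the groups compared, a replicate block, and leaving out each library or 3 libraries that stand apart (the last chosen after seeing the data). Named genes were the 10 largest rises and 10 largest falls of at least 5 CPM without overlap, up to 2 called genes of each list, and the 3 largest each way against ginseng and the mean of the other extracts. The comparison and the gene lists (29 lists, 434 of 435 genes found, 410 tested) were chosen with earlier results of these data known. Intervals of count ratios are exact at 95% and cover counting error only. Some results are not reported here.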

Additional observations from a re-analysis of the deposited data

Results flagged for a closer look

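For 24 named genes the effects of licorice and of ginseng at 20 µg/mL, each against the same vehicle, differed in the direct test between both extracts (edgeR's quasi-likelihood test, Benjamini-Hochberg). Genes higher with licorice, as log2 differences, were CXCL8 (2.04), IL6 (1.32), BIRC3 (1.09), ICAM1 (1.09), SOD2 (1.06), IL32 (0.93), PTX3 (0.83), CLDN1 (0.80), IGFN1 (0.75), NFKBIZ (0.69), NFKBIA (0.65) and SQSTM1 (0.34). Genes lower with licorice were ANK3 (−0.63), IFITM10 (−0.60), SLC7A8 (−0.58), ITGB4 (−0.56), VAV3 (−0.54), SFRP2 (−0.49), LONRF2 (−0.47), DOK7 (−0.41), OLFML2B (−0.41), DLX2 (−0.30), RARA (−0.26) and ACTA2 (−0.22). ANK3, SLC7A8 and VAV3 were named only for their difference from ginseng or from the other extracts, so for these the difference repeats the choice. CXCL8, IL6, BIRC3, IFITM10 and SFRP2 were named in part for such a difference. The remaining genes were chosen against vehicle with the same licorice libraries, so their differences are not independent of the choice. No test for a single outlying value was made in groups of 3 libraries.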

How the results depend on the processing

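No alternative reversed the direction of a named gene. Falls outnumbered rises among the genes called at the low dose, but rises outnumbered falls without replicate 2 of the low dose (159 against 156), without its replicate 3 (86 against 76) and without replicate 1 of the vehicle (96 against 95). The 589 genes called at the low dose became 854 with DESeq2 (287 higher, 567 lower), 2298 when the fit held only both groups (1042 higher, 1256 lower), 995 without 3 libraries that stand apart (597 lower), and 162 to 417 with a library left out (86 to 193 higher, 76 to 240 lower). At 100 µg/mL against vehicle the counts were 2001 and 2434 with only both groups and without libraries that stand apart, and 2255 to 4826 with a library left out, beside 4519. For licorice against ginseng they were 128, 142 and 119 to 188 at 20 µg/mL, beside 226, and 1686, 2455 and 2370 to 4971 at 100 µg/mL, beside 4568. Against the mean of the other extracts they were 211 to 487, beside 390. For ginseng at 20 µg/mL against vehicle 106 genes became 230 with DESeq2, 328 with no filter, 60 with only both groups, 188 with the replicate block, 729 without libraries that stand apart, and 11 to 406 with a library left out. The cause was not tested. The 3 comparisons of the high dose stayed within 1.5 times of their counts. Same-numbered libraries correlated between −0.0481 and 0.0809 in their deviations from group means, so the numbers were not taken to pair samples. The replicate block called 688 genes at the low dose, 588 of them shared with the 589, and changed no call of a gene chosen by the naming rule; of the NF-kB list it also called PTGS2 lower (adjusted p = 0.00954). Genes near the limit of detection, such as CXCL1 with 19 counts over the 3 vehicle libraries, have wide intervals.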
